A study of Homo sapiens with 8 samples.

Results

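The genes described here are 104 members of 4 families of drug and steroid metabolising enzymes. They are 55 cytochrome P450s (CYP), 19 UDP-glucuronosyltransferases (UGT), 13 sulfotransferases (SULT) and 17 glutathione transferases (GST) other than the microsomal ones. They were chosen by symbol alone, as rows of a table of 58870 genes whose name fits one of these families, with CYP51A1 of cholesterol synthesis left out. Their RNA was measured in 8 bulk RNA-seq libraries of CFPAC-1, an established human cell line of pancreatic ductal adenocarcinoma. Of these, 4 came from CFPAC-1 cells carrying an empty vector and 4 from cells carrying an ADRA2A transgene. Cells of both groups were cultured for 72 h with no treatment. The product of ADRA2A is the alpha-2A adrenoceptor, which binds adrenaline and noradrenaline and couples mainly to inhibitory G proteins, and the comparison asks which genes differ when it is overexpressed. The promoter of the transgene, and whether the cells were a clone or a pool, are not given in the sources used here. The labels do not say whether the 4 samples of a group were separate cultures or transductions, so p-values measure the spread between these samples, which may be technical.

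P450s are heme enzymes that insert an oxygen atom into drugs, fatty acids, sterols and vitamins, with electrons passed on by POR in the endoplasmic reticulum or by ferredoxin in mitochondria. UGTs, SULTs and GSTs then attach glucuronic acid, sulfate or glutathione to such products, which are exported by ABC transporters. Several of these genes are known targets of the aryl hydrocarbon receptor AHR, the vitamin D receptor VDR, the antioxidant factor NFE2L2 or the liver and gut factor HNF4A. The pancreatic duct is known for high GSTP1 and, among P450s of drug metabolism, for CYP3A5.

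Each library held between 14427035 and 17528915 estimated counts. ADRA2A had 0 counts in all 4 empty vector libraries, and 112, 142, 154 and 172 counts in the ADRA2A libraries, so every library went with its label. Levels are given as CPM, the usual read count relative to the library's total, here scaled by trimmed means (TMM), and adjusted p-values are from edgeR's quasi-likelihood test with Benjamini-Hochberg adjustment over the 14785 genes tested. Between the groups, 6314 genes (42.7%) passed an adjusted p of 0.05, 3195 of them (21.6%) higher and 3119 (21.1%) lower in the ADRA2A libraries. A gene is said to have risen or fallen only where it passed.

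Of the 104 members, 32 had 0 counts in every library: 13 P450s, 9 UGTs, 3 SULTs and 7 GSTs. A count of 0 in 1 library allows up to 3 counts, which is at most 0.208 CPM in these libraries. Another 32 members had some counts but too few to be tested, and 40 were tested. Among these 40, 19 rose and 7 fell, a share of 65.0% beside the 42.7% of all genes. By family, 12 P450s, 4 SULTs and 3 GSTs rose, while 4 P450s, 1 SULT, 1 GST and 1 UGT fell. The median log2 fold change was 0.20 for the tested members and 0.00 for all genes tested. For 22 of the 40 (55.0%) no library of 1 group lay within the range of the other, beside 39.2% of all genes tested. A change of at least 2-fold was found in 15 members, or 37.5% of those tested, beside 4.66% of all genes tested. Of these 15, 11 were higher, beside 2.55% of all genes tested, and 4 lower, beside 2.11%. A member near the limit of the count filter could enter through the group in which it was high, so these counts describe the list and no more. Among the 28 members with a mean of at least 50 counts, 13 rose and 4 fell (60.7%, beside 47.3% of all genes above that mean), and 8 of those 28 differed by at least 2-fold, beside 2.73% of the 12325 genes tested above that mean.

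**Figure D1:**
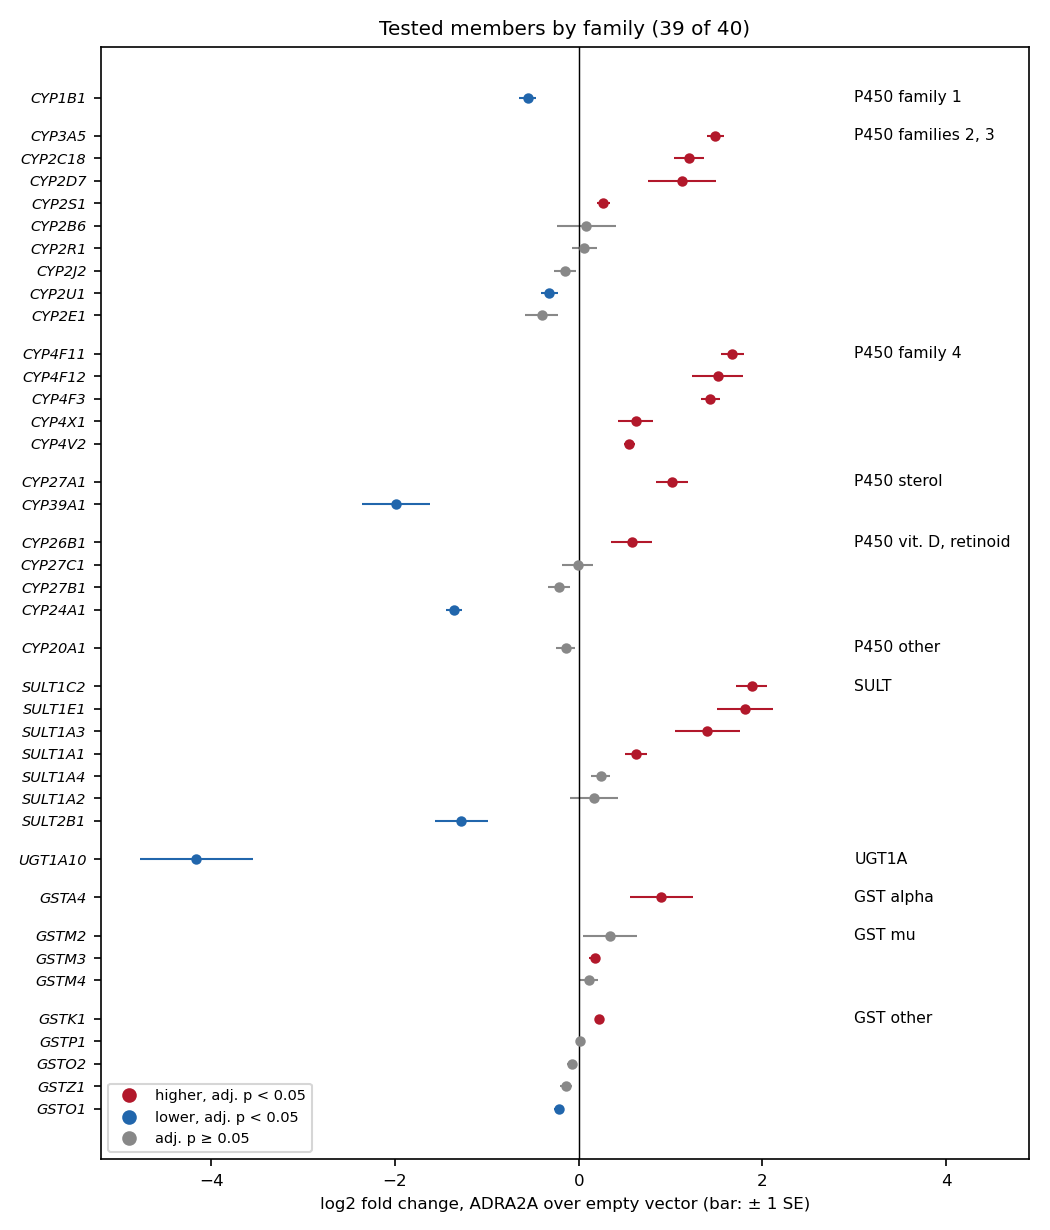
Log2 fold change of 39 of the 40 tested members, ADRA2A over empty vector, by family and role; points are fitted values, bars 1 standard error, and colour the call at an adjusted p of 0.05. All 5 tested P450s of family 4 lie above 0 in the higher colour, the glutathione transferases other than GSTA4 lie within 0.34 of 0, and UGT1A10 stands lowest at -4.16.

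The summed level of the families differed in different ways. The 13 SULTs together held 43.7 to 45.4 CPM in the empty vector libraries and 62.4 to 68.9 CPM in the ADRA2A libraries. The 55 P450s summed to 289 to 321 CPM against 324 to 360 CPM. The 17 GSTs summed to 764 to 785 CPM against 746 to 803 CPM. The 19 UGTs together reached only 1.76 to 2.95 CPM against 1.03 to 2.56 CPM. The groups thus did not overlap for the SULT and P450 sums and overlapped for the GST and UGT sums. None of these sums was tested.

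Among P450s of drug metabolism, CYP3A5 had the smallest p of the family. CYP3A5 (chromosome 7, 99648194 to 99679996, minus strand of GRCh38, like all positions here) is the main CYP3A enzyme outside the liver. Its level was 24.5, 24.4, 18.8 and 20.2 CPM in empty vector replicates 1 to 4 and 65.5, 60.2, 51.4 and 69.7 CPM in ADRA2A replicates 1 to 4. All 4 ADRA2A libraries lay far above the highest empty vector library. From 22.0 ± 2.92 CPM to 61.7 ± 7.91 CPM (SD, n = 4 each), the rise was 1.49 ± 0.0911 (SE) on the log2 scale, with an edgeR adjusted p of 8.93e-11. Its near relatives were hardly counted: CYP3A4 reached at most 4 counts and CYP3A7 at most 7 counts in any library, and CYP3A43 had 0. Summed over the 4 CYP3A genes, the level was 22.1 ± 2.86 CPM against 62.0 ± 7.85 CPM, so the way reads were divided among them moved the sum little.

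CYP2C18, a CYP2C enzyme of epithelia with few known substrates, stood at 3.40, 5.02, 2.90 and 3.01 CPM in the empty vector libraries. In the ADRA2A libraries it stood at 8.24, 9.44, 7.04 and 8.10 CPM, with no overlap between the groups. The rise was 1.20 ± 0.164 on the log2 scale (adjusted p = 6.95e-06). Its estimated counts had decimals in 7 of 8 libraries, a sign of reads shared with other annotated genes, and AL583836.1, which overlaps it on the same strand, rose by 1.86 from at most 0.527 CPM. CYP2C19, a drug-oxidising CYP2C enzyme next to CYP2C18 on chromosome 10, was too low to test, with 5, 3, 1 and 3 counts against 12, 15, 8 and 7 counts.

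The other members of families 2 and 3 moved less or did not pass. CYP2S1, a P450 of airway and gut epithelium, rose by 0.26 on the log2 scale, with 1 library pair overlapping: 29.9 CPM in empty vector replicate 4 and 29.5 CPM in ADRA2A replicate 3. CYP2U1, a fatty acid hydroxylase, fell by 0.32 on the log2 scale, from 12.5 ± 0.561 CPM to 9.95 ± 0.856 CPM. CYP2D7, nearly identical in sequence to CYP2D6, rose by 1.13 on the log2 scale from 0.498 CPM, but its groups overlapped and reads of the pair can be divided wrongly. The call is lost without empty vector replicate 4, ADRA2A replicate 1 or ADRA2A replicate 3, at adjusted p-values of 0.0616 to 0.0681. Log2 differences for CYP2B6, CYP2E1, CYP2J2 and CYP2R1 were 0.08, -0.40, -0.15 and 0.06, and none passed. The 95% interval for CYP2E1, the ethanol-oxidising P450, ran from -0.78 to -0.03, with an adjusted p of 0.0734, and it passes without empty vector replicate 2, at an adjusted p of 0.0222. In this part of the family, 5 of the 10 tested members rose and 1 fell, beside 21.6% higher and 21.1% lower among all genes tested.

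In family 1, whose genes are the classical targets of AHR, the level was lower in the ADRA2A libraries. CYP1B1 oxidises oestradiol and polycyclic hydrocarbons outside the liver. Of the 55 P450 members it had the highest level per exon length, 18.4 CPM per kilobase in the empty vector group. CYP51A1, which is not a member, was higher there, at 66.4 CPM per kilobase. CYP1B1 stood at 99.0, 89.2, 139 and 116 CPM in the empty vector libraries. In the ADRA2A libraries it stood at 71.1, 83.7, 74.7 and 72.5 CPM. The spread was wide among the empty vector libraries, yet the lowest of them was above the highest ADRA2A library. CYP1B1 fell by 0.55 on the log2 scale (SE 0.0932, adjusted p = 7.28e-05). Its share of the summed CPM of the 55 P450 members was 36.4% ± 5.31 (SD, n = 4) in the empty vector group. In the ADRA2A group it was 21.8% ± 1.83 (SD, n = 4). CYP1B1 lies at chromosome 2, 38066973 to 38109902, minus strand, and RMDN2 on the other strand overlaps it. RMDN2 itself, at 2.99 to 4.39 CPM in the empty vector libraries, differed by 0.26 on the log2 scale and did not pass. CYP1A1 was too low to test, with 3, 4, 6 and 1 counts against 0, 2, 0 and 1 counts, and CYP1A2 had 0 counts throughout.

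**Figure D2:**
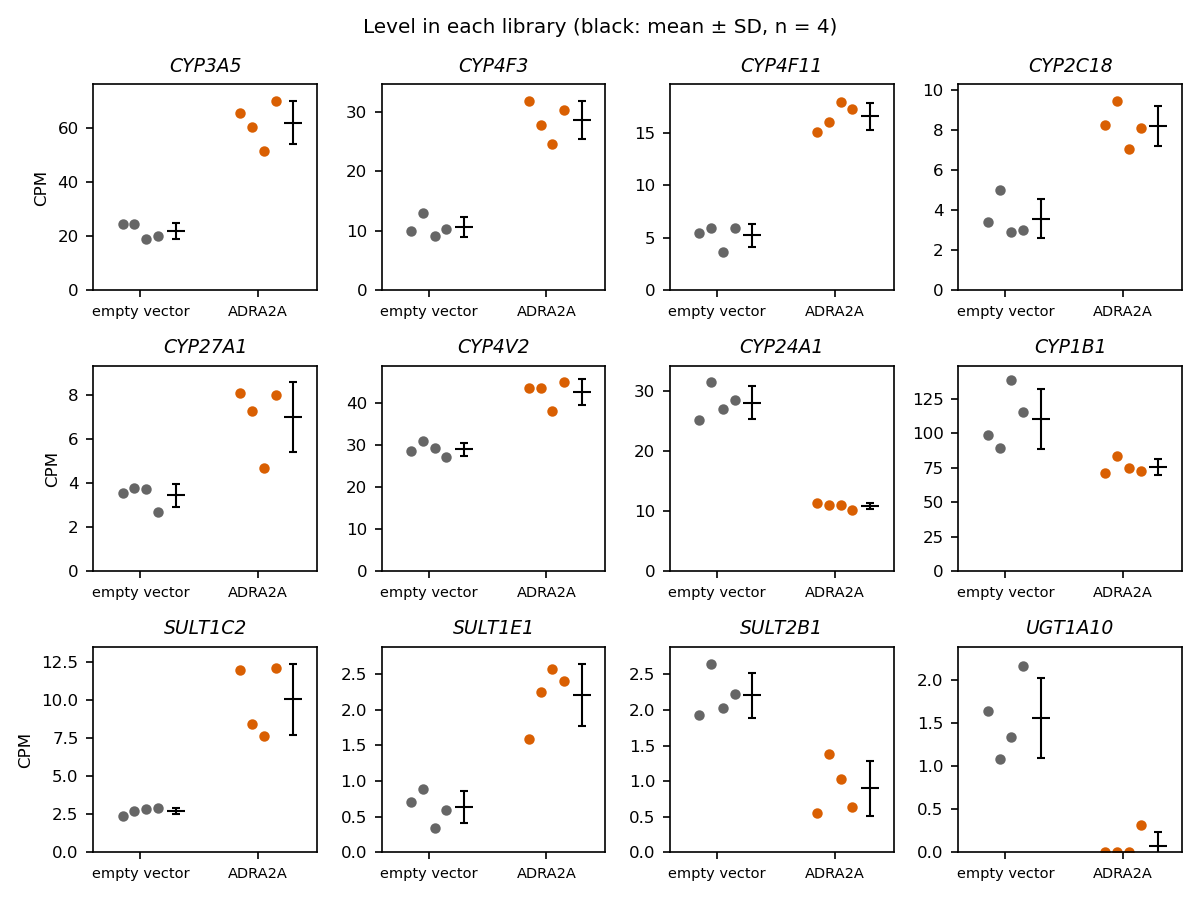
CPM of 12 members in each library, empty vector (grey) and ADRA2A (orange), with the mean ± SD of 4 libraries in black; each panel has its own scale starting at 0. The groups do not overlap in any of the 12 panels; CYP24A1, CYP1B1, SULT2B1 and UGT1A10 are lower and the other 8 higher in the ADRA2A libraries.

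Every tested P450 of family 4, enzymes that hydroxylate the far end of fatty acids and eicosanoids, rose: 5 of 12 members were tested and all 5 passed, where 21.6% of all genes tested were higher. CYP4F3, which inactivates leukotriene B4, stood at 9.96, 13.0, 9.18 and 10.3 CPM in the empty vector libraries and at 31.8, 27.7, 24.6 and 30.2 CPM in the ADRA2A libraries. It rose by 1.43 ± 0.101 (SE) on the log2 scale, with an edgeR adjusted p of 7.81e-10. CYP4F11, which hydroxylates long-chain fatty acids and vitamin K, stood at 5.45, 5.90, 3.66 and 5.96 CPM against 15.02, 16.0, 17.9 and 17.3 CPM. It had the largest log2 rise of the 5, at 1.67 ± 0.124 (adjusted p = 1.65e-09). In both genes every ADRA2A library was above every empty vector library. CYP4F12, another gene of this cluster on chromosome 19, rose by 1.51 from 0.703 CPM. Also in the cluster, CYP4F2 was too low to test, with 5 counts over the empty vector libraries and 25 counts over the ADRA2A libraries. The 6 CYP4F genes, summed after their values had been seen, gave 16.6 ± 2.51 CPM against 47.6 ± 2.44 CPM.

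CYP4V2, a fatty acid hydroxylase mutated in Bietti crystalline dystrophy of the retina, was at 28.8, 31.0, 29.4 and 27.2 CPM in the empty vector libraries. It was at 43.7, 43.7, 38.2 and 45.2 CPM in the ADRA2A libraries, a rise of 0.55 on the log2 scale with an adjusted p of 6.99e-07. CYP4X1, with few known substrates, rose by 0.62 on the same scale. CYP4B1, which bioactivates lung and bladder toxins in other tissues, was under the count filter. It had 3, 3, 1 and 2 counts in the empty vector libraries and 17, 7, 20 and 15 counts in the ADRA2A libraries, which do not overlap. The ratio of the summed counts, scaled for library size, was 6.70, with a 95% exact interval of 3.30 to 15.4 that covers counting error only. It was formed only because CYP4B1 passed in a fit without the count filter, so the interval is no separate support.

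The promoters of CYP4F3 and CYP4F11 differ in sequence: 123 aligned bases of the 250 before each RefSeq start are identical, 43.9% of the alignment. Those of another pair, SULT1A3 and SULT1A4, are identical over all 250 bases.

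The vitamin D and retinoid P450s did not move together. CYP24A1, the mitochondrial enzyme that degrades active vitamin D and a standard target of VDR, was at 25.2, 31.6, 27.0 and 28.5 CPM in the empty vector libraries. It was at 11.4, 11.02, 11.1 and 10.2 CPM in the ADRA2A libraries, all 4 of them far below the lowest empty vector library. CYP24A1 (chromosome 20, 54153446 to 54173986, minus strand) thus fell by 1.36 on the log2 scale, from 28.1 ± 2.71 CPM to 10.9 ± 0.493 CPM, with a standard error of 0.0834 and an edgeR adjusted p of 9.29e-11. CYP27B1, which makes active vitamin D, differed by -0.21 (95% interval -0.46 to 0.04) and did not pass. CYP27C1, a retinoid desaturase, differed by -0.01 (95% interval -0.37 to 0.35). CYP26B1, which degrades retinoic acid, rose by 0.57 with an adjusted p of 0.0440, close to the threshold. That call is lost without ADRA2A replicate 1, 2 or 4 or empty vector replicate 2 or 4, with adjusted p-values of 0.0508 to 0.172.

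Sterol and bile acid P450s were mostly silent, and the tested pair moved in opposite directions. CYP27A1, the mitochondrial sterol hydroxylase of bile acid synthesis, was at 3.57, 3.80, 3.72 and 2.68 CPM against 8.10, 7.26, 4.70 and 7.97 CPM. It rose by 1.01 on the log2 scale (adjusted p = 1.16e-04), with ADRA2A replicate 3 the lowest of its group. CYP39A1, an oxysterol hydroxylase, had 22, 18, 21 and 14 counts against 4, 4, 3 and 7 counts. It fell by 1.99 on the log2 scale, with a standard error of 0.373. None of the steroid hormone P450s was tested. Among them CYP21A2, of cortisol and aldosterone synthesis, had 1, 0, 4 and 0 counts against 8, 6, 10 and 7 counts. The ratio of its summed counts, formed on the same ground as for CYP4B1, was 6.34 (95% exact interval 2.44 to 20.9). CYP21A2 lies next to the complement gene C4B, which rose by 3.26 on the log2 scale, and has a near-identical pseudogene, CYP21A1P, with 3, 4, 2 and 3 counts against 8, 5, 14 and 14 counts. The part of that neighbour and that copy in the counts of CYP21A2 was not tested.

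SULTs had 4 members that rose and 1 that fell among 7 tested (71.4% called, beside 42.7% of all genes tested). SULT1C2, a phenol sulfotransferase of stomach and kidney, was at 2.40, 2.71, 2.85 and 2.88 CPM in the empty vector libraries. It was at 11.97, 8.45, 7.62 and 12.1 CPM in the ADRA2A libraries, well apart. SULT1C2 (chromosome 2, 108288639 to 108309915, plus strand) rose by 1.88 ± 0.169 on the log2 scale, with an edgeR adjusted p of 2.57e-08. SULT1E1, the oestrogen sulfotransferase, had 12, 13, 6 and 9 counts against 23, 34, 45 and 38 counts. It rose by 1.81 (SE 0.305, adjusted p = 7.38e-05), and its groups did not overlap. SULT1A1, the main phenol sulfotransferase, rose by 0.62, from 8.12 ± 1.04 CPM to 12.4 ± 1.76 CPM (adjusted p = 2.42e-04). SULT2B1, which sulfonates cholesterol and pregnenolone in skin, went the other way. Its 33, 39, 35 and 34 counts in the empty vector libraries stood against 8, 21, 18 and 10 counts, and it fell by 1.28 on the log2 scale (adjusted p = 0.00153).

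SULT1A3 and SULT1A4 are duplicated genes on chromosome 16 whose product sulfonates dopamine, noradrenaline and other monoamines. The last 60 bases before their RefSeq starts are shown because they are the same in both, as are all 250 bases before the start. These bases lie upstream of the RefSeq transcripts, and the transcribed sequences of the pair were not compared here (GRCh38.p14, plus strand, 5′ to 3′, all in lower case since no motif is marked; SULT1A3 at chr16:30199195-30199254 and SULT1A4 at chr16:29459853-29459912).
SULT1A3: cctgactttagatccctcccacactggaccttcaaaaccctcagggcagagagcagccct
SULT1A4: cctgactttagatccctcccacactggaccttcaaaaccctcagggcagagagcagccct

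Taken singly, the pair gave uneven values. SULT1A3, chosen for full values after they had been seen, was at 2.87, 2.10, 2.50 and 4.84 CPM in the empty vector libraries and at 5.88, 13.1, 11.1 and 2.34 CPM in the ADRA2A libraries. Replicate 4 of the ADRA2A group lay below empty vector replicates 1, 3 and 4, and the rise of 1.40 on the log2 scale (SE 0.355) had an adjusted p of 0.00337. SULT1A4, the SULT of highest level per exon length, was at 27.6, 24.3, 27.4 and 24.2 CPM against 30.4, 24.1, 29.7 and 37.9 CPM. The library lowest for SULT1A3 among the ADRA2A libraries, replicate 4, was the highest for SULT1A4. SULT1A4 differed by 0.24 on the log2 scale (95% interval 0.03 to 0.44) and did not pass (adjusted p = 0.0597), though it passes without ADRA2A replicate 2, at an adjusted p of 0.00455. Estimated counts of both genes had decimals in all 8 libraries.

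Added together, the pair was even within each group. The sum was 30.5, 26.4, 29.9 and 29.0 CPM in the empty vector libraries and 36.3, 37.2, 40.8 and 40.3 CPM in the ADRA2A libraries, with no overlap. The mean went from 29.0 ± 1.82 CPM to 38.6 ± 2.25 CPM, a ratio of 1.33. This sum was formed after the single values had been seen and was not tested. The annotated read-through transcripts that overlap the pair, SLX1A-SULT1A3 and SLX1B-SULT1A4, differed by -0.12 and -0.16 on the log2 scale, and neither passed.

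**Figure D3:**
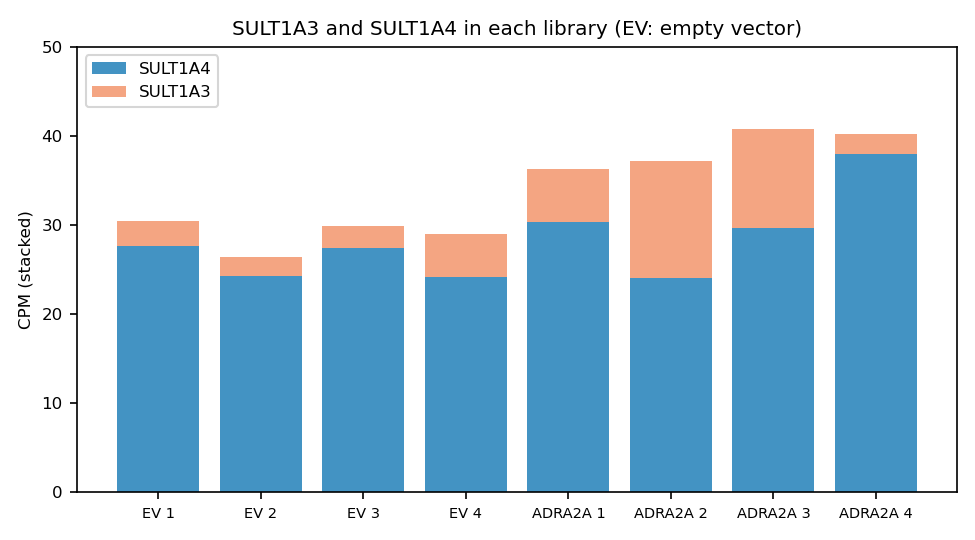
CPM of SULT1A4 (blue) and SULT1A3 (orange) stacked in each of the 8 libraries, empty vector (EV) left and ADRA2A right. The SULT1A3 part shrinks to 2.34 CPM in ADRA2A replicate 4 where the SULT1A4 part is largest, while the stacked heights are 26.4 to 30.5 CPM in the empty vector libraries and 36.3 to 40.8 CPM in the ADRA2A libraries.

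UGTs were close to silent in these cells: 9 of 19 had 0 counts in every library and 1 was tested. UGT1A10, a glucuronosyltransferase of gut epithelium rather than liver, had 28, 16, 23 and 33 counts in the empty vector libraries and 0, 0, 0 and 5 counts in the ADRA2A libraries. Only ADRA2A replicate 4 had any count, and it was below the lowest empty vector library. UGT1A10 fell by 4.16 on the log2 scale (SE 0.611, edgeR adjusted p = 1.59e-05), a fitted value that depends on the prior count and becomes -7.64 without ADRA2A replicate 4. The ratio of summed counts, empty vector over ADRA2A, was 19.6, with a 95% exact interval of 8.11 to 61.5 for counting error. Set against the 3 libraries at 0, each taken at its floor of 3 counts, the level was at least 8.08-fold lower.

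All UGT1A genes (UGT1A10 at chromosome 2, 233636448 to 233773300, plus strand) use their own first exon joined to the same last exons, so reads from the shared exons are divided between them by the estimate. Summed over the 9 UGT1A genes, the counts were 32, 20, 23 and 34 against 6, 4, 2 and 10, and the CPM 1.70 ± 0.431 against 0.357 ± 0.221. The summed groups did not overlap either, with a ratio of 4.76 rather than the 19.6 of UGT1A10 alone. UGT1A6, a phenol-conjugating enzyme, had 2, 2, 0 and 0 counts against 6, 2, 2 and 5 counts. In the UGT2B cluster, whose enzymes conjugate steroids and bile acids, the summed counts were 5, 5, 12 and 10 against 20, 12, 13 and 26, without a test. UGT2B15, the UGT of highest level per exon length, had 3, 4, 9 and 9 counts against 16, 6, 7 and 20 counts, and its groups overlapped.

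GSTs differed little, with 3 members higher, 1 lower and 5 not passing among 9 tested (44.4% called, beside 42.7% of all genes tested). GSTP1, the pi-class enzyme of ductal epithelium, was at 420, 436, 432 and 416 CPM in the empty vector libraries and at 425, 444, 439 and 408 CPM in the ADRA2A libraries. The groups overlapped throughout, and the log2 difference was 0.01, with a 95% interval of -0.06 to 0.08 and an adjusted p of 0.827. GSTP1 made up 55.2% ± 0.553 (SD, n = 4) of the summed CPM of the 17 GST members in the empty vector group. In the ADRA2A group it made up 54.9% ± 0.349 (SD, n = 4). Per kilobase of exon it was also the highest of the family, at 241 CPM against 243 CPM.

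GSTK1, the kappa-class enzyme of mitochondria and peroxisomes, was at 104, 105, 97.0 and 104 CPM against 117, 116, 123 and 120 CPM and rose by 0.22 on the log2 scale (SE 0.0403, adjusted p = 1.96e-04). GSTO1, an omega-class enzyme that removes glutathione from proteins, was at 98.0, 99.2, 103 and 97.5 CPM against 88.0, 90.2, 86.7 and 77.1 CPM. It fell by 0.22 (SE 0.0476, adjusted p = 9.78e-04). Neither of these genes overlapped between the groups, and both changes were of 1.16-fold. GSTM3, the most abundant mu-class gene per exon length, rose by 0.17 with overlapping groups (adjusted p = 0.0188), and passes neither without empty vector replicate 1 (adjusted p = 0.0778) nor without ADRA2A replicate 3 (adjusted p = 0.0789). GSTA4, which conjugates the lipid peroxidation product hydroxynonenal, had 15, 9, 7 and 9 counts against 25, 15, 17 and 16 counts. Its rise of 0.90 (adjusted p = 0.0394) is lost when ADRA2A replicate 1 or 4 or empty vector replicate 2, 3 or 4 is left out, with adjusted p-values of 0.0516 to 0.16. GSTM2, GSTM4, GSTO2 and GSTZ1 differed by 0.34, 0.11, -0.08 and -0.14, and none passed.

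Promoters were searched for motifs in the 250 bases before the RefSeq start, on both strands, with 79 of the 104 members matched by symbol. TGACNNNGC, the core of the antioxidant response element bound by NFE2L2, was found for 7 of the 30 tested members matched and in 11% of 27305 promoters: for 4 of 14 members that rose, 1 of 4 that fell and 2 of 12 that did not pass. Holders of this motif thus include genes called in each direction as well as GSTP1. The sites of 4 genes are shown so that this range can be seen, each with 10 bases on either side and the motif in capitals, read 5′ to 3′ on the gene's strand (RefSeq, GRCh38.p14). GSTP1, which did not pass, is at chr11:67583736-67583764, plus strand. GSTO1, which fell, has 2 sites, at chr10:104254656-104254684 and chr10:104254721-104254749, plus strand. CYP4V2, which rose, is at chr4:186191452-186191480, plus strand, and CYP4F11, which rose, at chr19:15935005-15935033, minus strand, with the motif in reverse.
GSTP1: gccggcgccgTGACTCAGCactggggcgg
GSTO1, far site: ggcggagggaTGACTGAGCatttataact
GSTO1, near site: cgagatgcttTGACACAGCcccttaagat
CYP4V2: ccgacgccccTGACCCCGCatccggaggc
CYP4F11: ctgtgcccatGCTGTGTCAccctgagctg

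GCGTG, the core bound by AHR with ARNT, was in 31.9% of all promoters and in 6 of the 30 tested members matched. CYP1B1, CYP24A1 and UGT1A10 were not among those matched, so their promoters were not searched for any of these motifs. CAAAGTCCA, a site of HNF4A, was in 0.293% of promoters and in 1 tested member, CYP2B6. A match is only a description of these letters in this window.

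The receptors and factors that control these families had 6 of 12 tested genes higher and none lower, out of a list of 16. Their share called, 50%, lies near the 42.7% of all genes tested, of which 21.6% were higher. HNF4A rose by 0.94 on the log2 scale, from 16.1 ± 0.795 CPM to 31.0 ± 1.94 CPM (adjusted p = 1.77e-09). AHR rose by 0.22, from 188 ± 3.11 CPM to 218 ± 3.99 CPM (adjusted p = 2.94e-05), while CYP1B1, its known target, fell. VDR rose by 0.23, while CYP24A1 fell. NR1I3 had 0 counts in every library and NR1I2, the pregnane X receptor known to control CYP3A and CYP2C genes in liver, had at most 5 counts. Their absence from the tested genes means that nothing can be said of their change.

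Electron supply to the P450s differed little. Of 11 genes, all tested, 2 rose and 2 fell (36.4% called, beside 42.7%). CYB5R3, which reduces cytochrome b5, rose by 0.22 (adjusted p = 4.95e-05), and CYB5B, the outer mitochondrial form of cytochrome b5, fell by 0.28 (adjusted p = 1.15e-06). The largest of these 4 changes was 1.21-fold, in CYB5B.

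Of 13 genes that supply the cosubstrates of conjugation, 5 fell, 2 rose and 6 did not pass (53.8% called, beside 42.7%). GCLC, the catalytic subunit of the rate-limiting step of glutathione synthesis, fell by 0.44, from 96.7 ± 3.48 CPM to 71.1 ± 3.06 CPM (adjusted p = 1.29e-07). UGDH, which makes UDP-glucuronic acid for the UGTs, fell by 0.34, from 163 ± 1.84 CPM to 129 ± 7.34 CPM (adjusted p = 1.80e-06). Of 12 listed NFE2L2 targets, 9 fell and none rose, or 75.0% called, beside 42.7% of all genes tested, of which 21.1% were lower. The list median was -0.35 beside 0.00 for all genes tested. TXNRD1, thioredoxin reductase, fell by 0.42 (adjusted p = 1.78e-08). NFE2L2 RNA itself rose by 0.15, and the factor's activity was not measured.

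Other conjugating enzymes went both ways, with 3 higher and 3 lower among 11 tested (54.5% called, beside 42.7%). NNMT, which methylates nicotinamide, rose by 0.75 from 277 ± 12.5 CPM to 465 ± 7.43 CPM (adjusted p = 1.90e-12). PTGES, the prostaglandin E synthase of the microsomal GST superfamily, rose by 1.10 (adjusted p = 4.01e-08). Of 8 tested hydrolases and other oxidases, 6 rose and none fell (75.0% called, beside 42.7% of all genes tested, of which 21.6% were higher), among them the carboxylesterase CES3 by 0.58 (adjusted p = 3.84e-04) and the soluble epoxide hydrolase EPHX2 by 1.01 (adjusted p = 7.54e-04). Among 10 tested transporters 2 rose and 5 fell (70% called, beside 42.7%): ABCC3, which exports glucuronides, rose by 0.28 (adjusted p = 1.02e-05), and ABCC4, which exports sulfated steroids and cyclic nucleotides, fell by 0.35 (adjusted p = 9.98e-05).

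**Figure D4:**
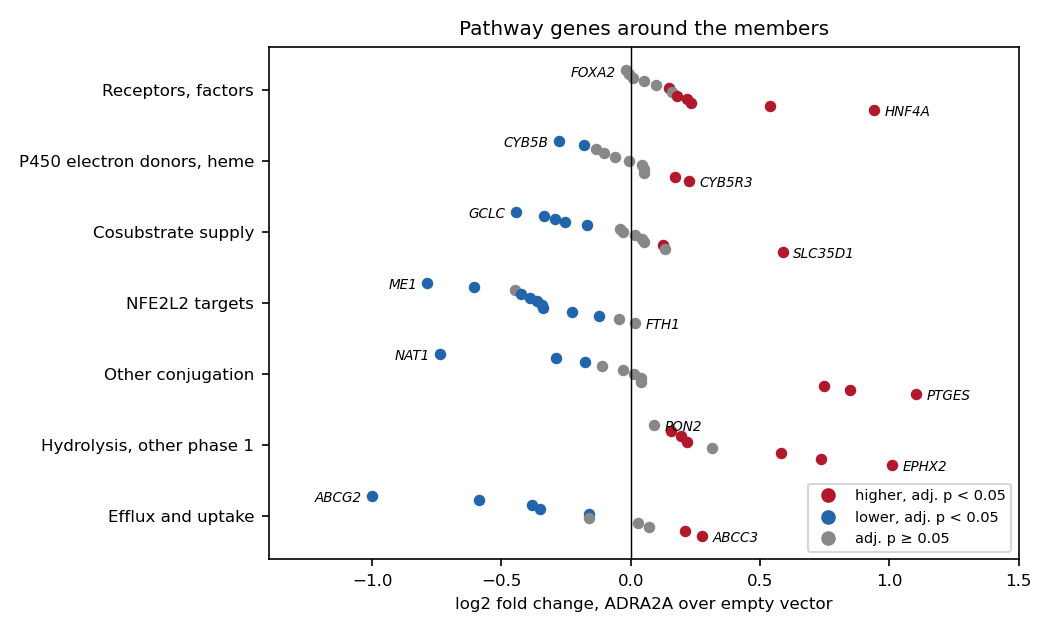
Log2 fold change, ADRA2A over empty vector, of each tested gene of 7 pathway lists, coloured by its call at an adjusted p of 0.05; the lowest and highest gene of each list is named. The 12 NFE2L2 targets have 9 genes in the lower colour and none in the higher, and the receptors and factors have 6 in the higher and none in the lower.

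Other genes that moved with the members were measured too. Of 10 duct epithelium markers, 9 were tested, 4 rose and 4 fell (88.9% called). Beside these and the marker lists that follow, 42.7% of all genes tested were called, 21.6% higher and 21.1% lower. The summed level of the duct markers was 12214 to 12791 CPM in the empty vector libraries and 12153 to 13209 CPM in the ADRA2A libraries. KRT19 and EPCAM, which define ductal epithelium, were at 2826 and 471 CPM in the empty vector group, and CFTR was too low to test, at 4 to 20 counts. Of 8 hepatocyte markers 2 were tested and both rose, SERPINA1 by 1.42 and FGB by 1.37. The summed level was 359 to 411 CPM against 962 to 1077 CPM, most of it SERPINA1, at 346 CPM against 922 CPM. APOA1, too low to test, went the other way, with 6, 4, 1 and 6 counts against 0, 1, 0 and 1 counts. The defining APOB and TTR were at 0 in all libraries and ALB at 0 to 7 counts. Of 8 enterocyte markers 3 were tested and all rose: CDH17 by 1.76, CDX2 by 1.5 and VIL1 by 1.10, with the summed level at 12.5 to 15.7 CPM against 31.9 to 35.7 CPM, while APOA4 and SI were at 0. Among stromal markers 2 of 8 were tested and COL1A1 fell by 1.72. Among blood and endothelial markers 3 of 8 were tested, CD68 and PECAM1 rose, and CD3E and HBB were at 0. All libraries came from the CFPAC-1 line. In its bulk RNA, a change in the share of CFPAC-1 cells that express a gene and a change in RNA per cell cannot be told apart. The part of these changes in those of CYP3A5, CYP2C18, CYP4F3 and the other members was not tested.

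Neighbours on the chromosome were compared to see whether a member moved with the genes around it, with other members left out. Within 2 Mb on either side of CYP3A5, 78 tested genes had a median log2 fold change of -0.02. For CYP4F3 it was -0.02 over 72 genes. These leave out the members CYP4F12 and CYP4F11 in the same stretch, which rose by 1.51 and 1.67. For SULT1C2 it was 0.04 over 14 genes. CYP24A1 fell while its 6 tested neighbours had a median of 0.29, and CYP39A1 fell while its 12 had a median of 0.17. UGT1A10 had neighbours at 0.10, over 21 genes. GSTM3, in contrast, rose by 0.17 among 45 neighbours with a median of 0.18, 37 of them above 0, and SULT1A1 rose by 0.62 among 77 neighbours with a median of 0.12. CYP4X1, of family 4, rose by 0.62 among 35 neighbours with a median of 0.17, 30 of them above 0. The part of these stretches in the rises of GSTM3, SULT1A1 and CYP4X1 was not tested.

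**Figure D5:**
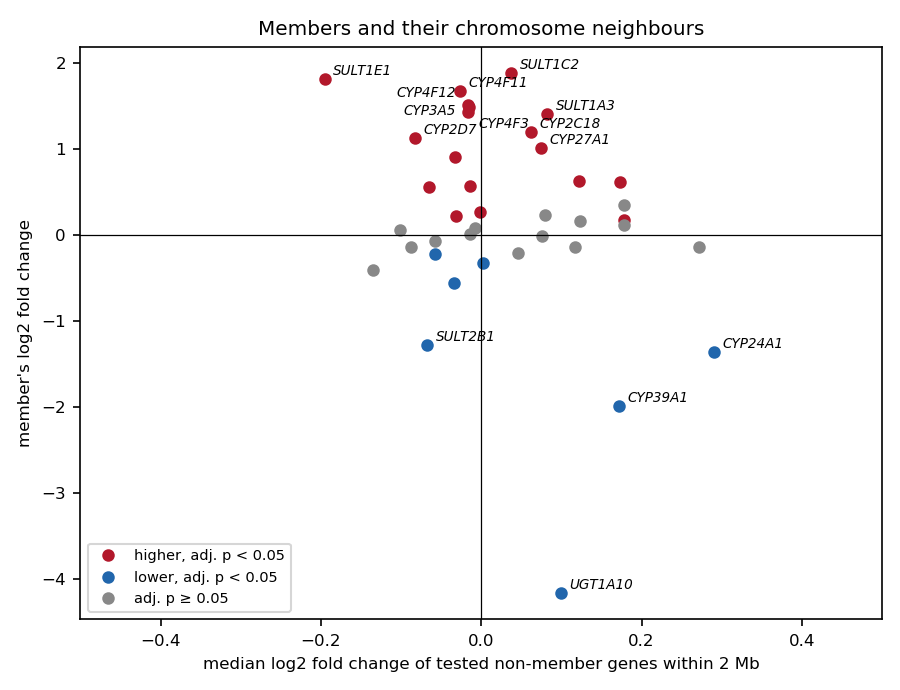
Log2 fold change of 39 of the 40 tested members (vertical axis) against the median log2 fold change of tested genes that are no members within 2 Mb of each (horizontal axis); members changed at least 2-fold are named and colour is the call. Neighbour medians lie within 0.3 of 0, while members range from -4.16 to 1.88.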

How the data were processed

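The data are estimated counts for each gene and sample, as the authors deposited them from RSEM, without scaling between samples. Per the submitters' processing notes, cutadapt, STAR, RSEM, DESeq2 and the build hg38 were used. Versions and the use of strand are not given in the sources used here, so overlapping and antisense genes may share reads. RSEM divides reads that fit several genes between them, which touches the SULT1A, UGT1A, CYP2C and CYP2D members.

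Decimals were rounded off, low genes were removed with filterByExpr at its default, and libraries were scaled with TMM factors. The 4 ADRA2A and 4 empty vector libraries were compared with the quasi-likelihood test of edgeR 4.0.16 in R 4.3.3, with the group as its single term and Benjamini-Hochberg adjustment over 14785 genes, a procedure first tested on simulated data. DESeq2 1.42.0, other scalings, other count filters, a replicate block and leaving out each library were the alternatives. CPM sums over paralogs, and ratios with 95% exact binomial intervals for low members, carry no test. For members under the count filter, such ratios were formed only where the member had passed in the fit without a filter. Those intervals are therefore no separate support for a difference. Replicates differed beyond sampling noise, so each counted as 1 sample. Intervals and floors cover counting error only, since reads without molecular identifiers are not independent molecules.

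Positions and exon lengths are those of GENCODE 44 on GRCh38 (58517 of 58870 genes and 102 of 104 members matched). Full values were given for the called members of smallest p in each family (8 P450s, 4 UGTs, 4 SULTs and 5 GSTs at most), for the highest per exon length, for CYP1A1, CYP1B1, CYP24A1 and GSTP1, and for the 2 called genes of smallest p in each pathway list. Some genes that this rule names are not reported here. Other named genes were chosen after their values were seen. The members and lists were chosen with earlier results of these data known.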

Additional observations from a re-analysis of the deposited data

Results flagged for a closer look

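The spread within each group of 4 libraries was checked with Dixon's criterion (the gap of the highest or lowest value to its nearest neighbour, as a ratio to the whole range) in 60 groups of values, and 3 held a value far from the others, while chance gives about 1 in 20. UGT1A10 was at 0.316 CPM in ADRA2A replicate 4 and at 0 in the other 3 ADRA2A libraries (ratio 1.00). GSTA4 was at 1.73 CPM in ADRA2A replicate 1, above the other ADRA2A libraries (ratio 0.949). The summed level of the alpha-class GSTs was also 1.73 CPM there (ratio 0.949), because GSTA4 is the only alpha-class gene with counts.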

How the results depend on the processing

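Across the alternatives no called member changed direction. Over 54 genes and 743 log2 fold changes under alternatives, 707 kept their direction and their side of the threshold, 20 (of 4 genes) no longer passed, 4 (of 2 genes) newly passed and 12 (of 5 genes, none of them called) changed sign. DESeq2 called 24 of the 40 tested members, without CYP26B1 and GSTA4, and upper quartile scaling 25. With a mean of at least 50 counts required, 4 members fell instead of 7 and 8 instead of 15 changed by at least 2-fold (the latter chosen after seeing the data), since only 28 members are then tested. Leaving out each library gave 5703 to 6042 called genes, 16 to 20 members higher and 7 to 8 lower. Without a filter 31 of 72 members and 6550 of all genes with at least 1 count passed. The number of such genes is not given here. No share of all genes can thus be set beside the 31 members. Among these members were CYP4B1, CYP4F2, CYP21A2, CYP2C19, CYP46A1 and SULT1A4, while GSTA4 no longer passed. At nearly the same fold change, edgeR's adjusted p for CYP3A5 was 4.48e-121 in this fit, beside 8.93e-11 in the main fit. For CYP24A1 it was 2.99e-52 beside 9.29e-11. Calls of members with few counts in this fit are thus not comparable with the main calls. CYP46A1 had 0, 0, 0 and 0 counts against 7, 0, 1 and 0 counts, so its groups overlap and its call rests mainly on ADRA2A replicate 1. Replicate numbers did not pair the samples (correlations of same-numbered deviations across genes were -0.08, 0.01, 0.14 and -0.07). With the replicate number as a block, 26 members passed, 25 of them as before, with SULT1A4 gained and CYP26B1 lost. Sign changes, on the log2 scale, were as follows, with the other end of the range over left-out libraries in parentheses. GSTP1 (0.0344 at most) was at -0.0064 with upper quartile scaling, -0.0004 without empty vector replicate 4, -0.0048 without ADRA2A replicate 2 and -0.0005 without ADRA2A replicate 3. CYP27C1 (-0.0796 at least) was at 0.0878, 0.0011 and 0.0316 without empty vector replicate 1, empty vector replicate 3 and ADRA2A replicate 2. CYP2B6 (0.241 at most) was at -0.0891 and -0.0303 without ADRA2A replicates 2 and 4. CYP2R1 (0.163 at most) was at -0.0077 and -0.0321 without empty vector replicates 2 and 3. SULT1A2 (0.275 at most) was at -0.0067 without ADRA2A replicate 2. The cause of these sign changes was not tested. UGT1A10 without ADRA2A replicate 4 has 0 counts in its group and a fitted -7.64, which is no bound. Depth limits the 64 members that were not tested.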
